A study of Mus musculus with 23 samples.

Results

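Mouse hippocampus of several genotypes was sequenced at 9 months, and the comparison described here takes the loss of 1 copy of Lsd1 on its own, without a tau transgene. It sets the 2 libraries titled Lsd1Δ/+ against WT replicates 1 and 2, which is 4 of the 23 libraries of the series and 4 of the 14 of its 9-month cohort. Membership followed the titles and replicate numbers, not any measured value. WT replicates 3 and 4 were set aside because the heterozygotes have no libraries with those numbers. All groups were C57BL/6 mice, and the RNA was poly(A)-selected from whole dissected hippocampus. The Lsd1Δ/+ mice carry 1 deleted and 1 intact Lsd1 allele, and no source used here says which exons the deleted allele lacks. For side-by-side values, PS19 mice (a transgene of mutant human tau) and PS19;Lsd1Δ/+ mice of the same age were used, replicates 1 and 2 of each in the fit, and these share no library with the main comparison. The labels do not say that replicates are separate animals, so each p-value measures only the spread between these libraries, which may be technical.

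LSD1, the product of the gene Kdm1a, is a histone demethylase that removes methyl groups from lysine 4 of histone H3. It works inside repressor complexes built on CoREST proteins and class I histone deacetylases, which the factor REST and others bring to DNA. In embryos it shuts down enhancers of stem cell genes as cells differentiate, and in adult neurons it is still made after division has stopped. One copy of the gene is usually enough for a mouse to live and breed.

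Depth was even across the 4 libraries. Totals were 21452638 and 23489103 counted reads in WT replicates 1 and 2, and 22603468 and 18799229 in Lsd1Δ/+ replicates 1 and 2. Mitochondrially encoded genes took 3.38% to 3.83% of the reads. Across genes, the log2 levels of the 2 WT libraries correlated at r = 0.983, those of the 2 heterozygote libraries at 0.983, and libraries of different genotype at 0.984 to 0.988 (genes are not independent replicates). Markers of hippocampal neurons were present in all 4: the mean level of 10 CA1 pyramidal markers was 5.54 to 5.67 log2 CPM (a level: the count scaled to the library's total), and that of 12 dentate granule markers 4.99 to 5.57. The transgene checks held, with Prnp, whose promoter drives the PS19 transgene, at 913, 864, 843 and 885 CPM in the 4 libraries against 1180 to 1960 CPM in the 8 PS19 and PS19;Lsd1Δ/+ libraries. Mapt, the mouse tau gene, read 470 and 530 CPM in WT and 488 and 517 CPM in Lsd1Δ/+, so the groups overlapped. The pseudogene Lamr1-ps1 had 0 counts in each of the 4 libraries, which allows up to 3 counts, and 45 to 78 counts in every library with the transgene.

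Kdm1a was lower in the heterozygotes. It lies at chr4:136550540-136602723 (GRCm38, minus strand). Its level was 51.6 and 51.7 CPM in WT (mean 51.6 ± 0.121 SD, n = 2) and 36.4 and 35.1 CPM in Lsd1Δ/+ (35.8 ± 0.921 SD, n = 2). Both heterozygote libraries thus sat below both WT libraries, with a gap far wider than the spread within either pair. The fitted level was 69.4% of WT, with a 95% interval of 58.3% to 82.4%, so the interval does not reach 50%. As a log2 difference this was -0.53 (SE 0.105). The unadjusted p was 0.00164, but over the 18124 genes tested the adjusted p was 1.0 by edgeR's quasi-likelihood test and 0.909 by DESeq2, so the drop is not a call. Reads of the retained part of a deleted allele would be counted with those of the intact allele, and how many there are was not measured.

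The same drop was seen with the tau transgene. Kdm1a read 52.4 and 49.6 CPM in PS19 replicates 1 and 2 and 36.9 and 38.8 CPM in PS19;Lsd1Δ/+ replicates 1 and 2, a log2 difference of -0.50 (SE 0.098, unadjusted p = 0.00162, edgeR fit of 8 libraries). The 2 drops differed by 0.04 on the log2 scale (SE 0.139, unadjusted p = 0.81). Replicates 3 and 4 were less uniform. PS19;Lsd1Δ/+ replicate 3 read 59.7 CPM, inside the range of 48.3 to 64.2 CPM of the 4 PS19 libraries, and replicate 4 read 47.1 CPM, just under that range. WT replicate 3 read 39.8 CPM, with 33.9% of its reads from mitochondrially encoded genes, and WT replicate 4 read 59.2 CPM. The library labelled PS19;Lsd1Δ/+ replicate 3 thus goes against its label at Kdm1a, and it enters no fit of 8 libraries.

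**Figure D1:**
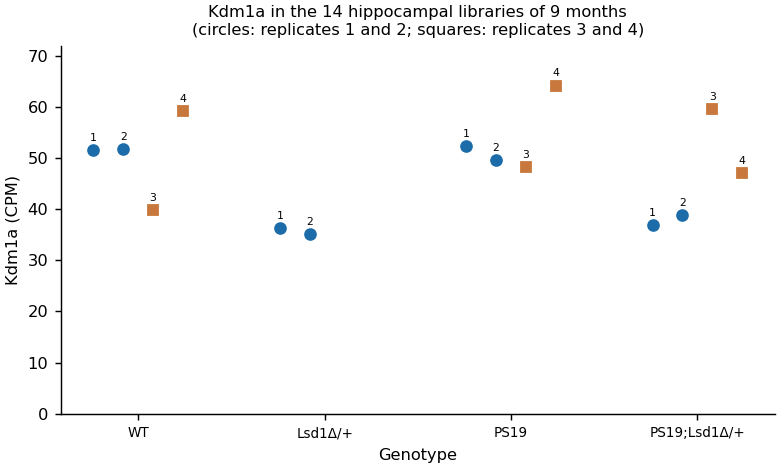
Level of Kdm1a in CPM (y axis, from 0) in each of the 14 libraries of 9 months, by genotype (x axis), with replicate numbers above the points. The 2 Lsd1Δ/+ libraries sit at 36.4 and 35.1, below WT replicates 1 and 2 at 51.6 and 51.7, while PS19;Lsd1Δ/+ replicate 3 sits at 59.7.

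Few genes passed the threshold. Of 18124 genes tested, edgeR called 3 at an adjusted p under 0.05, which is 0.0166% of those tested. All 3 rose in the heterozygotes, and 0 fell. At an unadjusted p under 0.05 there were 288 genes, 1.59% of those tested, with 90 higher (0.497%) and 198 lower (1.09%). Evenly spread p-values would put a share of 0.05 of all genes there, so a count of this size is no sign of a difference. DESeq2 called 19 genes, 0.1% of the 18965 it gave an adjusted p, with 11 higher and 8 lower. Genes whose 2 heterozygote libraries lay entirely above or below the 2 WT libraries made up 22.5% of those tested, 11.3% above and 11.2% below. Over all genes tested, 9437 were higher and 8687 lower, with a median log2 difference of 0.01.

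**Figure D2:**
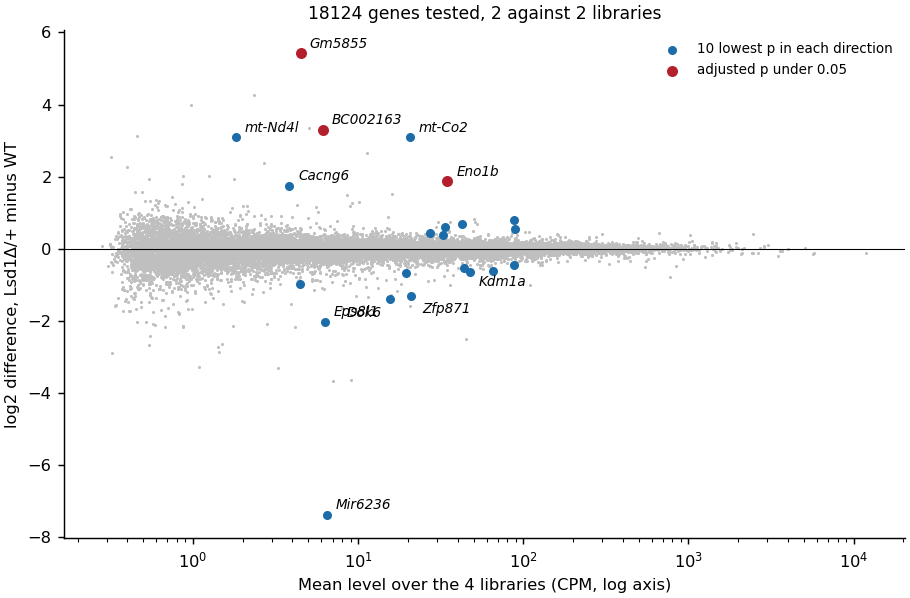
Log2 difference, Lsd1Δ/+ minus WT (y axis), against the mean level over the 4 libraries in CPM (x axis, log scale); each point is 1 of the 18124 genes tested. The 3 genes called by edgeR (red) all lie above 0, at 5.42, 3.31 and 1.87, and Kdm1a lies at -0.53 among the 10 genes with the lowest p in each direction (blue).

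The 3 called genes all share much of their sequence with other genes. Gm5855 and BC002163 are annotated as processed pseudogenes, the intronless relics that arise when an mRNA is copied back into DNA, and Eno1b is annotated as protein-coding. They and Gm10036, the next copy by p, are predicted genes or copies outside the naming rule and were singled out after their values were seen. Eno1b (chr18:48045335-48048412) is a copy of Eno1, which makes the glycolytic enzyme alpha-enolase. Its level was 14.9 and 15.0 CPM in WT and 53.4 and 55.5 CPM in Lsd1Δ/+, a log2 difference of 1.87 (SE 0.116, adjusted p = 0.0153). Gm5855 (chr3:130929366-130930670, a processed pseudogene) is also closest to the enolase family. It had 3 and 6 counts in WT and 190 and 172 counts in Lsd1Δ/+, which is 0.14 and 0.255 CPM against 8.41 and 9.15 CPM and a log2 difference of 5.42 (SE 0.357, adjusted p = 0.0153). BC002163 (chr16:42955631-42955949, a processed pseudogene) is a copy of Ndufs5, a subunit of complex I of the respiratory chain. It read 1.21 and 1.02 CPM in WT and 11.6 and 10.5 CPM in Lsd1Δ/+, a log2 difference of 3.31 (SE 0.242, adjusted p = 0.0206). Gm10036 (chr18:15832794-15833327), a copy of the ribosomal protein gene Rpl11, read 1.21 and 0.596 CPM in WT and 8.63 and 9.79 CPM in Lsd1Δ/+, a log2 difference of 3.35 (SE 0.362) that missed the edgeR threshold (adjusted p = 0.191) and passed that of DESeq2 (adjusted p = 3.35e-11). In none of the 4 did the groups overlap, but the 4 were taken for their low p in this same comparison. Of all genes tested, 22.5% did not overlap either.

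No source used here says how reads that align to several places were counted, so the split of reads between copy and parent is uncertain for all of these genes. The split differed between the genotypes by far more than the family total. Of the reads on Eno1, Eno1b and Gm5855 together, the copies took 3.22% and 3.12% in WT and 13.5% and 14.5% in Lsd1Δ/+. The summed level of the family was 468.1 and 489.2 CPM in WT and 458.5 and 446.8 CPM in Lsd1Δ/+, a log2 ratio of -0.08. Eno1 itself was 453 and 474 CPM against 397 and 382 CPM. For Ndufs5 and BC002163, the copy took 3.04% and 2.65% of the family's reads in WT and 28.3% and 26.8% in Lsd1Δ/+. The sum was 39.8 and 38.5 CPM against 41.1 and 39.3 CPM (log2 ratio 0.04), while Ndufs5 alone was 38.6 and 37.5 CPM against 29.5 and 28.8 CPM. For Rpl11 and Gm10036, the copy's share was 1.39% and 0.765% in WT and 9.9% and 11.0% in Lsd1Δ/+, with a sum of 87.3 and 77.9 CPM against 87.2 and 88.9 CPM (log2 ratio 0.09). Rpl11 alone was 86.05 and 77.36 CPM against 78.53 and 79.15 CPM, so the groups overlapped. These sums hold each parent and only the copies named with it, chosen after their values were seen. Gm10288, a copy of Rpl11, was left out (10.8 and 10.5 against 10.6 and 11.3 CPM). So were the Eno1 copies Gm4735 (10.3 and 10.5 against 7.39 and 6.44 CPM) and Gm8483 (at most 0.851 CPM). Within these sums the groups did not overlap in the copies' share, and the sums of the 2 genotypes lay within 0.1 of each other on the log2 scale. The copies took at most 3.22% of a family's reads in WT, so each sum there is mostly its parent. Whether reads moved between parent and copy or the copy itself rose was not tested.

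The parents of all 4 copies lie on chromosome 4, the chromosome of Kdm1a, although the copies do not. From the middle of Kdm1a, Rpl11 is 0.536 Mb away, Ndufs5 12.9 Mb and Eno1 13.7 Mb. This was seen first in the 4 copies and then counted for all genes, in a window of 20 Mb set after the values were known. A copy was counted where at least 20% of its words of 31 bases occur in a more abundant gene elsewhere, its parent. Of 31 tested genes with a parent inside the window, 12 had an unadjusted p under 0.05 (38.7%), with 9 higher and 3 lower. Of 923 tested genes with a parent elsewhere, 21 did (2.28%), and 1.59% of all genes tested. Among the 12, Eno1b, Gm5855, Gm8483 and Gm4735 share 1 parent, Eno1, and so are not separate instances. The 12 also include the 4 copies in which the pattern was first seen, so the 38.7% is partly drawn from them. The other 8 of the 12 were Gm8539 (parent Zbtb8os, log2 difference 1.94), Gm8483 (Eno1, 2.27), Gm4735 (Eno1, -0.59), Gm11223 (Stmn1, 1.20), Nudc-ps1 (Nudc, 0.49), Hmgn2-ps1 (Hmgn2, 1.26), Gm5898 (Thrap3, -1.06) and Gm5466 (Pabpc4, -1.09). Of the 12, 10 had the same sign in PS19;Lsd1Δ/+ against PS19, in libraries of their own, and 8 to 11 had when 1 of those libraries was left out. With genes left out that share at least 25% of their words with another locus, edgeR called 0 of 16756 genes, with 241 at an unadjusted p under 0.05. All 3 called genes are among those left out, so their calls were lost by construction.

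How alike copy and parent are bears on how far their reads can be told apart, so a stretch of 2 of the pairs is shown, taken from the GENCODE M21 transcripts of GRCm38. BC002163 matches the coding sequence of Ndufs5 at 316 of 318 aligned bases (99.4%), with no gap. The stretch below holds both differences, in capitals. Counted from the first base of BC002163, they are T81C and A105G, the base of Ndufs5 first and that of BC002163 last. The BC002163 stretch is chr16:42955691-42955750 on the plus strand, and the Ndufs5 stretch is chr4:123715960-123716019 on the minus strand.
BC002163: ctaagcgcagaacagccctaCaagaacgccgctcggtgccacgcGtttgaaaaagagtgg
Ndufs5: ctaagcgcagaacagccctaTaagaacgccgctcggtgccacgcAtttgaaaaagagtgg

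Gm5855 is farther from its parent. It matches the coding sequence of Eno1 at 1254 of 1301 aligned bases (96.4%), with 1 gap. The first 120 bases of each are shown because they begin at the start codon and hold 5 differences, again in capitals. The Gm5855 stretch is chr3:130930551-130930670 on the minus strand, and the Eno1 stretch, which spans introns, lies within chr4:150239482-150241079 on the plus strand.
Gm5855: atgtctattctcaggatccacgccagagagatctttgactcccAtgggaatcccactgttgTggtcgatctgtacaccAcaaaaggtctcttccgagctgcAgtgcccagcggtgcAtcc
Eno1: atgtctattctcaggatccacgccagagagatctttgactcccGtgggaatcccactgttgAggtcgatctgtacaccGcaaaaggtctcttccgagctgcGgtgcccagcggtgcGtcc

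Across the other genotypes BC002163 and Gm10036 went with the Lsd1 label in all libraries but 1. Gm10288, another tested copy of Rpl11, did not go with that label. It read 10.8 and 10.5 CPM in WT replicates 1 and 2 and 10.6 and 11.3 CPM in Lsd1Δ/+. With the transgene it read 10.9 and 10.1 CPM in PS19 and 9.47 and 9.18 CPM in PS19;Lsd1Δ/+, replicates 1 and 2. BC002163 read 0.124 to 1.52 CPM in the 4 WT and 0.184 to 1.24 CPM in the 4 PS19 libraries, against 10.1, 14.1 and 16.2 CPM in PS19;Lsd1Δ/+ replicates 1, 2 and 4. Replicate 3 of that group, whose Kdm1a was at the PS19 level, read 0.324 CPM. Gm10036 had the same pattern, with at most 1.53 CPM in WT and PS19, with 8.01, 8.04 and 7.05 CPM in PS19;Lsd1Δ/+ replicates 1, 2 and 4, and with 0.518 CPM in replicate 3. In the fit of 8 libraries, PS19;Lsd1Δ/+ minus PS19 was 3.40 for BC002163 (SE 0.273; unadjusted p = 6.6e-06) and 2.49 for Gm10036 (unadjusted p = 0.000267). Neither difference could be told from that without the transgene (unadjusted p = 0.809 and 0.133). Averaged over both backgrounds, BC002163 was the 1 gene of 18931 that edgeR called (0.00528%; log2 difference 3.35, adjusted p = 0.0136), with 209 genes at an unadjusted p under 0.05 (1.1%) and 4 called by DESeq2 (0.0112%).

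The enolase copies did not keep to the Lsd1 label. Eno1b read 55.2 CPM in PS19 replicate 2 and 22.2 CPM in PS19 replicate 4, as against 14.6 and 0.308 CPM in PS19 replicates 1 and 3. It read 55.3 and 44.1 CPM in PS19;Lsd1Δ/+ replicates 1 and 2, but 3.62 and 4.23 CPM in replicates 3 and 4. Gm5855 followed, with 10.4 CPM in PS19 replicate 2, with 10.5 and 7.8 CPM in PS19;Lsd1Δ/+ replicates 1 and 2, and with at most 0.963 CPM in every other library outside the 2 heterozygotes. The log2 difference with the transgene was 0.44 for Eno1b (unadjusted p = 0.448) and 0.68 for Gm5855 (unadjusted p = 0.544). Without PS19 replicate 2 these were 1.77 and 4.40, without PS19 replicate 1 -0.23 and -0.27, and without PS19;Lsd1Δ/+ replicate 1 0.19 and 0.38.

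**Figure D3:**
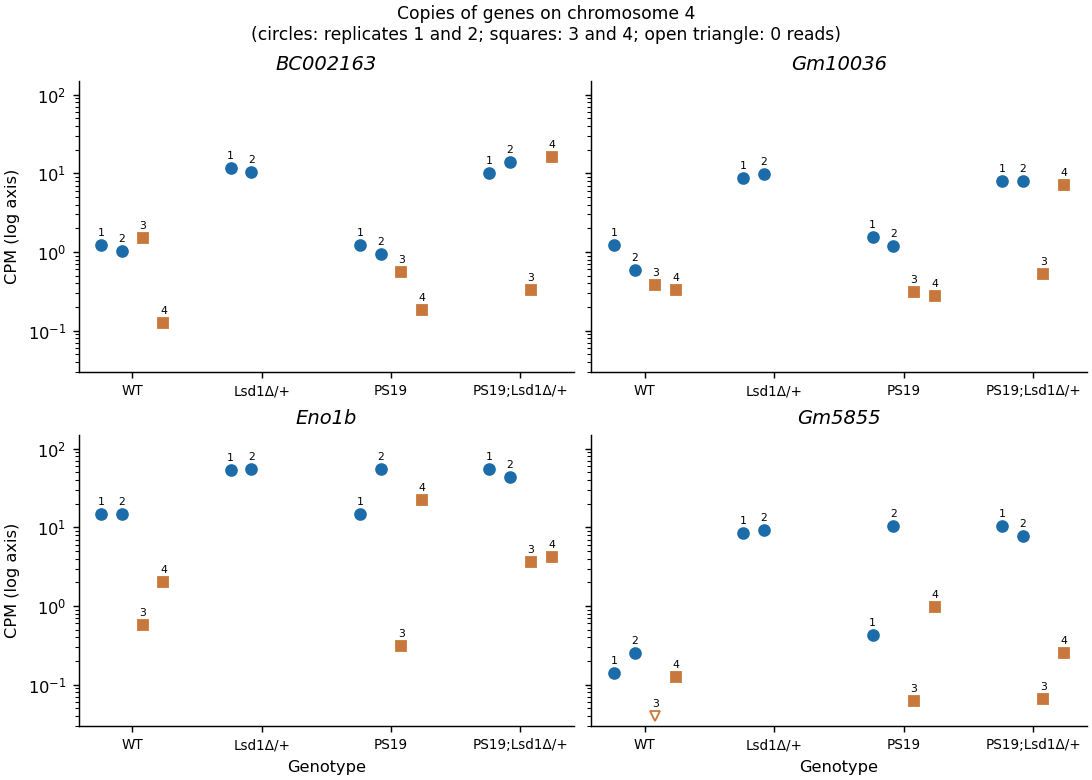
Level in CPM (y axis, log scale; an open triangle at the foot marks 0 reads) of 4 copies in each of the 14 libraries of 9 months, by genotype (x axis), with replicate numbers above the points. BC002163 and Gm10036 are high in both Lsd1Δ/+ libraries and in PS19;Lsd1Δ/+ replicates 1, 2 and 4 and low elsewhere, while Eno1b and Gm5855 are also high in PS19 replicate 2.

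No gene around Kdm1a passed the threshold. Of 273 tested genes within 10 Mb of Kdm1a, 0 were called by edgeR and 0 by DESeq2. An unadjusted p under 0.05 was found for 13 of them (4.76%, against 1.52% on other chromosomes). Without Kdm1a itself these were 12 of 272 (4.41%), and on the rest of chromosome 4 the share was 2.0%. Each of these shares is under the 0.05 of evenly spread p-values. Of the 13, 5 had the same sign in PS19;Lsd1Δ/+ minus PS19. In Lsd1Δ/+ minus WT, 4 of the 13 were higher and 9 lower. Those higher included Casp9, an initiator caspase (26.6 and 26.9 CPM in WT, 41.3 and 40.3 CPM in Lsd1Δ/+), Nbl1, a secreted antagonist of bone morphogenetic proteins (72.2 and 72.5 against 101 and 110 CPM), and Fam43b. Kdm1a, Dcdc2b, Crocc, C1qb, Rcan3, Gm25772, Aldh4a1, Iqcc and Arhgef19 were lower, with log2 differences of -0.32 to -0.68 apart from -1.40 for the small RNA gene Gm25772, which was under 1 CPM. Casp9 and Nbl1 had the opposite sign with the transgene, at -0.33 and -0.46, and the difference between backgrounds had unadjusted p-values of 0.0295 and 0.00763. Without PS19;Lsd1Δ/+ replicate 2 the values with the transgene were 0.00 and -0.23, and without PS19;Lsd1Δ/+ replicate 1 they were -0.78 and -0.76.

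Outside copies and neighbours, the genes with the lowest p were given as values, since none passed the edgeR threshold. On the lower side these were Eps8l1, an adaptor in actin signalling, Dok6, an adaptor of receptor tyrosine kinases in neurons, and Zfp871, a zinc finger protein. Eps8l1 read 11.4 and 8.77 CPM in WT and 2.79 and 2.18 CPM in Lsd1Δ/+, a log2 difference of -2.02 (SE 0.253, unadjusted p = 0.000108). Dok6 read 26.3 and 18.7 CPM against 7.96 and 9.31 CPM, a log2 difference of -1.38 (SE 0.215, unadjusted p = 0.000408). Zfp871 read 35.6 and 24.3 CPM against 10.8 and 13.1 CPM, a log2 difference of -1.32 (SE 0.224, unadjusted p = 0.000772). DESeq2 called all 3 as lower, with adjusted p-values of 3.2e-05, 0.000388 and 0.000388. Some libraries without the Lsd1Δ/+ label were at or near these heterozygote levels. In WT replicates 3 and 4, Eps8l1 read 1.27 and 2.82 CPM, Dok6 8.58 and 14.1 CPM, and Zfp871 50.6 and 36.1 CPM. In PS19 replicates 1 to 4, Eps8l1 read 2.39, 18.1, 2.16 and 2.02 CPM. Dok6 read 4.63, 7.76, 5.98 and 10.1 CPM there, and Zfp871 7.16, 11.0, 33.5 and 29.1 CPM. With the transgene, Dok6 was at -1.37 (unadjusted p = 0.0129), and at -1.89 to -0.89 when 1 library was left out (highest without PS19 replicate 2). Eps8l1 was at -0.01 and Zfp871 at -0.16 there, and without PS19 replicate 2 they were at 2.17 and 0.25. Without PS19 replicate 1 they were at -0.83 and -0.46, without PS19;Lsd1Δ/+ replicate 1 at -0.38 and -0.26, and without PS19;Lsd1Δ/+ replicate 2 at 0.28 and -0.10.

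Smaller values were seen for Ppp2r3d, a regulatory subunit of protein phosphatase 2A, at -0.65 (62.6 and 54.0 against 37.7 and 36.2 CPM). The extracellular matrix genes Fn1 (fibronectin) and Col19a1 (a collagen) were at -0.45 and -0.68. Cbx7, a Polycomb protein that binds methylated histone H3, was at -0.62 (86.9 and 72.6 against 58.1 and 45.5 CPM). Slc2a5, a fructose transporter of microglia in brain, was at -0.98. With the transgene it was at -1.02, but at -0.41 without PS19;Lsd1Δ/+ replicate 2, -0.36 without PS19 replicate 1 and -2.09 without PS19;Lsd1Δ/+ replicate 1. The small RNA gene Mir6236 had 452 and 111 counts in WT and 3 and 0 counts in Lsd1Δ/+, and between 67 and 4650 counts in the 8 libraries with the transgene. It is given without a fold, since its heterozygote counts are at the floor of 3.

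On the higher side, mt-Nd4l and mt-Co2, subunits encoded in mitochondrial DNA, were at 3.10 and 3.09. Their levels were low and uneven, at 0.326 and 0.426 against 3.67 and 2.87 CPM for mt-Nd4l, and at 4.85 and 3.87 against 18.3 and 55.2 CPM for mt-Co2. Of their words of 31 bases, 98.9% and 100% recur in transcripts of other genes, so these values are uncertain too. Among the nuclear genes, Cacng6, a calcium channel subunit, read 1.77 and 1.75 CPM in WT and 7.12 and 4.68 CPM in Lsd1Δ/+ (1.74, unadjusted p = 0.000664; DESeq2 adjusted p = 0.0456). C1ql2, a synaptic protein secreted by dentate granule cells, read 57.1 and 72.1 CPM against 127 and 96.5 CPM (0.79, unadjusted p = 0.00206; DESeq2 adjusted p = 0.0187). Dsp, the desmosomal protein desmoplakin, was at 0.68, Gcsh, a protein of glycine cleavage, at 0.45, and Plk5, a polo-like kinase, at 0.38. Plk5 was also higher with the transgene, at 1.84 (unadjusted p = 0.00537), and at 0.87 without PS19;Lsd1Δ/+ replicate 2. The other 4 of these 5 nuclear genes had the opposite sign there, at -0.12 to -0.39, but for 3 of them that sign rested on single libraries. Without PS19;Lsd1Δ/+ replicate 2, Cacng6 was at 0.84, C1ql2 at 0.54 and Dsp at 0.62, and without PS19;Lsd1Δ/+ replicate 1 they were at -4.21, -2.33 and -2.52. Cacng6 was at 2.02 without PS19 replicate 1 and -0.92 without PS19 replicate 2, and C1ql2 was at -0.53 and 0.06. Gcsh kept its sign, at -0.60 to -0.22 over the 4 libraries left out in turn.

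The signs of the differences were set beside those in the PS19 background. Of the 288 genes with an unadjusted p under 0.05, 154 had the same sign in PS19;Lsd1Δ/+ minus PS19 (53.5%), as had 8890 of all 18100 genes measured in both (49.1%). These counts moved with the libraries used: without PS19;Lsd1Δ/+ replicate 2 they were 194 (67.4%) and 9444 (52.2%), and without PS19 replicate 2 they were 133 (46.2%) and 9337 (51.6%). In that background edgeR called 0 of 18931 genes (0.0%), with 378 at an unadjusted p under 0.05 (2.0%) and 6 called by DESeq2 (0.0168%), and 1546 were called when PS19;Lsd1Δ/+ replicate 1 was left out. The difference between the 2 backgrounds also had 0 calls (0.0%), with 196 genes at an unadjusted p under 0.05 (1.04%) and 4 called by DESeq2 (0.0112%), and 695 calls without that same library.

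**Figure D4:**
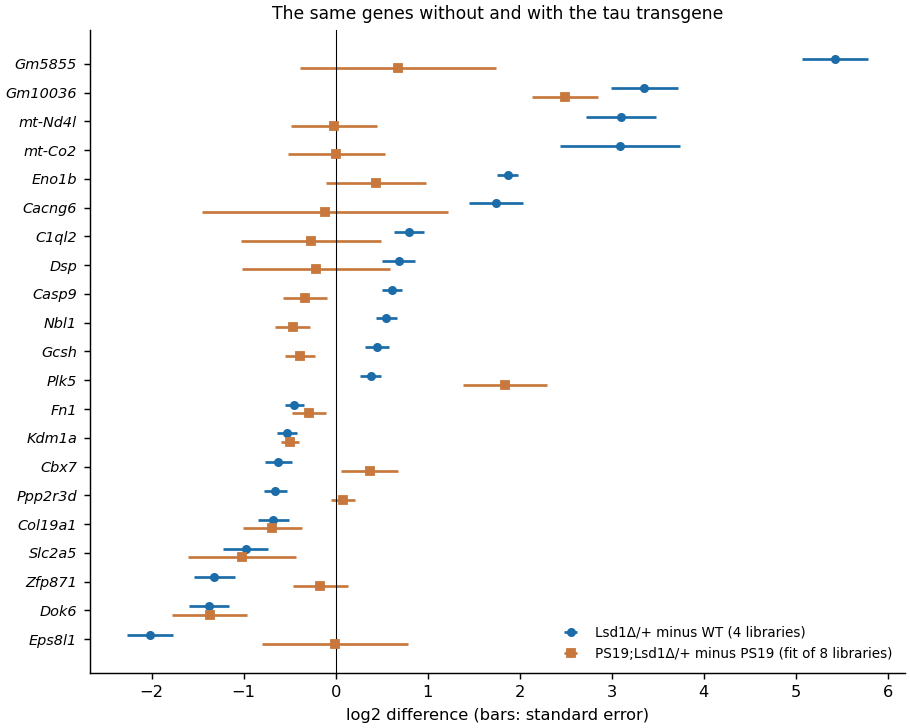
Log2 difference (x axis; bars are standard errors) of the genes with the lowest p in each direction and of the copies Gm5855 and Gm10036 (y axis), for Lsd1Δ/+ minus WT (circles) and PS19;Lsd1Δ/+ minus PS19 (squares); Mir6236 is left out. Kdm1a at -0.53 and -0.50 and Dok6 at -1.38 and -1.37 lie together; of these, Kdm1a stayed between -0.53 and -0.47 with the transgene when 1 library was left out, and Dok6 between -1.89 and -0.89.

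The partners of LSD1 had log2 differences near 0. Of 15 genes of the LSD1-CoREST complex, all 15 were tested, 0 were called, and Kdm1a was the 1 with an unadjusted p under 0.05. The median log2 difference of the 15 was 0.05. The CoREST scaffolds read 27.0 and 34.1 CPM in WT and 28.3 and 35.5 CPM in Lsd1Δ/+ for Rcor1, 13.8 and 13.8 against 16.9 and 15.6 CPM for Rcor2, and 27.9 and 23.6 against 24.8 and 25.2 CPM for Rcor3. The deacetylases Hdac1 and Hdac2 were at 0.05 and 0.08, the H3-binding subunit Phf21a at 0.08, the HMG protein Hmg20b at 0.07, and Rest at -0.11 (7.55 and 7.45 against 7.74 and 6.17 CPM). Zmym2, Zmym3, Gse1, Ctbp1 and Mier1 lay between -0.04 and 0.06. Other histone demethylases had 12 of 17 members higher and a median of 0.04, and the range ran from -0.10 (Kdm5a) to 0.14 (Kdm2b). Histone lysine methyltransferases had 15 of 21 higher and a median of 0.02.

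The core pluripotency genes had few or no reads. Of 16 pluripotency and stem cell factors, 11 passed the filter on low counts and 0 were called, with a median of -0.08. Pou5f1 had 1 and 1 counts in WT and 0 and 0 in Lsd1Δ/+, Nanog 0 and 2 against 1 and 1, Lin28a 0 and 1 against 0 and 0, Utf1 1 and 0 against 3 and 0, and Zfp42 0 in each library. A count of 0 allows up to 3, so no difference could be seen at this depth. Sall4, a zinc finger factor of stem cells, read 0.466 and 0.383 CPM in WT and 1.02 and 0.904 CPM in Lsd1Δ/+ (1.17, unadjusted p = 0.0321), and 0.16 with the transgene (unadjusted p = 0.884), where it ran from -2.81 without PS19;Lsd1Δ/+ replicate 1 to 1.16 without PS19 replicate 2, with -0.44 without PS19 replicate 1 and 1.11 without PS19;Lsd1Δ/+ replicate 2. The others were Sox2 (-0.10), Klf4 (-0.16), Klf2 (-0.08), Klf5 (0.30), Myc (0.06), Mycn (-0.10), Foxo1 (0.17), Esrrb (-0.16), Lin28b (-0.22) and Tbx3 (0.03). Neuronal genes repressed by REST had 10 of 24 higher and a median of -0.01.

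Myelin and dentate granule genes had the medians farthest above 0 among the cell-type lists named here, with 0 called members in either. Lists are described by counts and medians beside those of all genes (52.1% higher, median 0.01), and of the 42 list medians 35 changed sign in at least 1 of the alternatives. In bulk tissue fewer cells of a type and less RNA per cell cannot be told apart. All 17 oligodendrocyte and myelin genes were higher, with a median of 0.38. Mobp, a myelin protein, read 508 and 617 CPM in WT and 867 and 652 CPM in Lsd1Δ/+ (unadjusted p = 0.0276), and Ermn 33.9 and 39.5 against 50.5 and 43.5 CPM (unadjusted p = 0.0263). Their mean level was 5.95 and 6.02 log2 CPM in WT but 6.61 and 5.96 in Lsd1Δ/+, so the second heterozygote library was inside the WT range. Without Lsd1Δ/+ replicate 1 the median was 0.07, with 10 of 17 higher. Dentate granule markers had 10 of 12 higher and a median of 0.30, with an unadjusted p under 0.05 for C1ql2, Dsp, Npnt (0.41) and Lct (0.73). Their mean level was 4.99 and 5.18 log2 CPM in WT and 5.27 and 5.57 in Lsd1Δ/+, so the groups did not overlap. With WT replicates 3 and 4 in the fit, the dentate median was 0.01 (14 libraries) and 0.00 (6 libraries), and without Lsd1Δ/+ replicate 2 it was 0.18. With the transgene the medians had no stable sign. That of the dentate list was -0.30, but 0.15 without PS19;Lsd1Δ/+ replicate 2, -1.15 without PS19;Lsd1Δ/+ replicate 1 and -0.17 without PS19 replicate 2. That of the myelin list was 0.03, and -0.10 to 0.19 when 1 library was left out (lowest without PS19 replicate 2, highest without PS19 replicate 1, and -0.01 without PS19;Lsd1Δ/+ replicate 1). CA1 and CA3 pyramidal markers each had 5 of 10 higher, with medians of -0.01 and -0.00, and Bok, a CA3 marker, was at 0.35.

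Glial and immune lists were near 0 or slightly lower. Homeostatic microglia had 15 of 16 lower and a median of -0.10. Slc2a5 (13.6 Mb from Kdm1a), Fcrls (-0.26) and Cx3cr1 (-0.17) were the lowest by p. The mean levels of the list overlapped between genotypes, at 4.10 and 3.94 log2 CPM in WT and 3.95 and 3.81 in Lsd1Δ/+. The astrocyte core list had 13 of 14 lower and a median of -0.13, led by Slc4a4 at -0.22. Reactive astrocytes had 6 of 13 higher with a median of -0.00, and Serpina3n was at 0.69 through 1 library (34.3 and 45.7 against 86.4 and 43.2 CPM). Disease-associated microglia had 5 of 16 higher (median -0.04), complement 5 of 12 (-0.11), interferon response 8 of 20 (-0.02) and antigen presentation 3 of 15 (-0.09). Itgax, Cst7 and Clec7a, which mark activated microglia, had 0 to 8 counts in each of the 4 libraries. Oligodendrocyte precursors had 5 of 10 higher (-0.00), and only 2 of 13 T cell genes passed the filter.

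Neuronal and stress lists had medians within 0.2 of 0. GABAergic markers had 13 of 16 lower and a median of -0.10, with Erbb4 (56.9 and 45.6 against 37.5 and 34.9 CPM) and Reln (69.4 and 76.9 against 61.2 and 60.6 CPM) at unadjusted p-values of 0.00922 and 0.0485. Synaptic genes had 19 of 30 lower (-0.03), including the glutamate receptor Gria4 at -0.36 and the vesicle protein Syt1 at -0.47. Immediate early genes had 19 of 22 higher and a median of 0.18, but Arc, for one, read 186 and 301 CPM in WT and 325 and 286 CPM in Lsd1Δ/+. Medians were 0.15 for glucocorticoid response (11 of 12 higher) and heat shock (13 of 16), 0.12 for the unfolded protein and integrated stress response (18 of 20), 0.05 for oxidative phosphorylation (27 of 30), 0.08 for p53 targets (10 of 15), 0.04 for the circadian clock (12 of 18), -0.01 for neurogenesis (4 of 14) and -0.04 for cholesterol synthesis (9 of 22). In the stress list Slc7a11, the cystine transporter, went the other way at -0.54. With the transgene it was at -0.59, and at -0.21 without PS19 replicate 1. The mean levels of the glucocorticoid, heat shock and unfolded protein lists overlapped between genotypes. Heat shock, for one, was at 6.015 and 6.557 log2 CPM in WT and 6.094 and 6.834 in Lsd1Δ/+. With the transgene 0 of 12, 0 of 16 and 4 of 20 members of these 3 lists were higher. For immediate early genes it was 1 of 22, and for oxidative phosphorylation 25 of 30. Imprinted genes had 7 of 21 higher (-0.10), with Ube3a at -0.38 (85.2 and 81.1 against 66.2 and 61.5 CPM), clustered protocadherins 10 of 20 (0.01), long non-coding RNAs 3 of 10 (-0.12) and mitochondrially encoded genes 5 of 15 (-0.11).

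**Figure D5:**
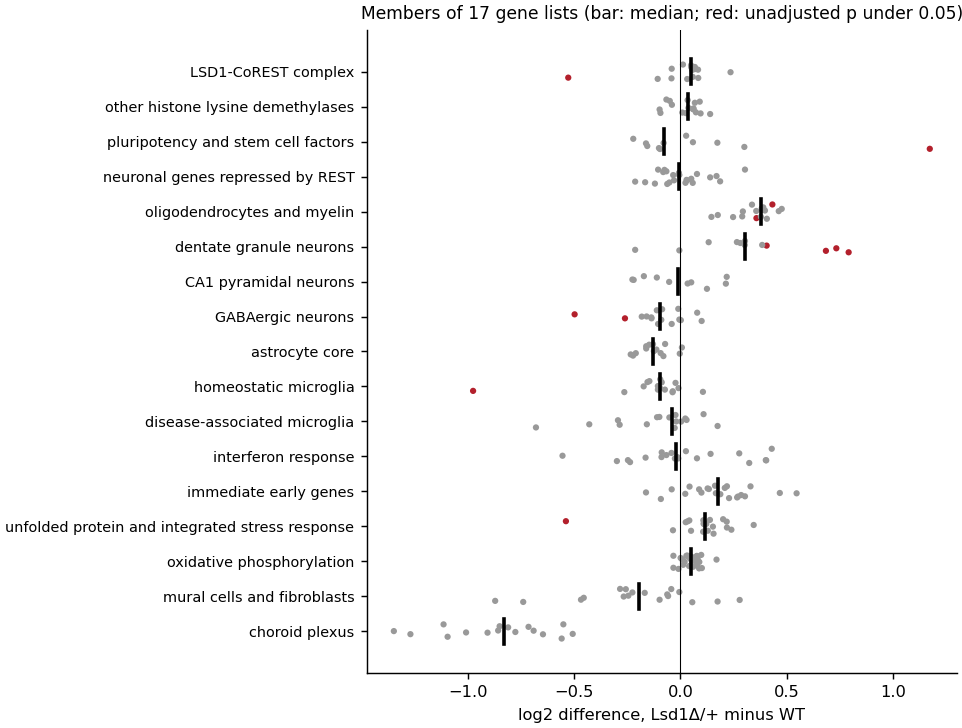
Log2 difference, Lsd1Δ/+ minus WT (x axis), of each tested member (points) of 17 gene lists (y axis); black bars are medians and red points have an unadjusted p under 0.05. The myelin and dentate granule lists lie to the right at medians of 0.38 and 0.30 and the choroid plexus list to the left at -0.83, and no member of any list shown passed the adjusted threshold.

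Markers of tissue next to the hippocampus differed between libraries of the same genotype. All 16 choroid plexus genes were lower in Lsd1Δ/+, with a median of -0.83, but their mean level was 1.21 and 5.28 log2 CPM in the 2 WT libraries and 4.31 and 1.27 in the 2 heterozygote libraries. Without WT replicate 2 the median was 2.37. The part of this tissue in the other results was not tested. Mural cells and fibroblasts had 15 of 18 lower (-0.20), endothelium 12 of 16 higher (0.05), ependymal cells 5 of 12 higher (-0.04), red blood cells 1 of 5 (-0.30), neocortex 3 of 14 (-0.10), striatum 5 of 14 (-0.03) and thalamus 7 of 13 (0.03). Sex markers were even: Ddx3y lay between 42.1 and 51.5 CPM, and Xist had 1 to 12 counts, in the 4 libraries.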

How the data were processed

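Per the submitters' processing notes, the genome build was GRCm38 and the tools listed, with no role given, include featureCounts 1.6.0.6, HISAT2 2.1.0, FastQC 0.11.7 and Trimmomatic 0.36.5. No source used here states the strand setting, the annotation release or the rule for multiple alignments. Per the file headers, the column of the Lsd1Δ/+ files names a raw read file and that of the others an alignment. In Lsd1Δ/+ against WT this difference and the genotype cannot be told apart. The PS19 and PS19;Lsd1Δ/+ files both name an alignment. The authors deposited whole-number counts per gene, without normalization. Symbols came from GENCODE M21 (54165 of 54232 identifiers; the other 67 held 0.0151% of reads).

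The test was edgeR's quasi-likelihood test (edgeR 4.0.16, R 4.3.3; TMM, robust, filterByExpr with minimum count 10 and minimum total 15, genotype as the only term, Benjamini-Hochberg adjustment over all genes tested), checked on simulated counts first. DESeq2 1.42.0 was the second tool. CPM are the deposited counts scaled to each library's total; log2 CPM used a prior count of 2. Intervals are 95% intervals of the fit.

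The genes, lists and comparisons were chosen with earlier results of these data known. Named genes were Kdm1a, Mapt and Prnp, the 10 with the lowest p in each direction at 1 CPM or more where under 5 were called, up to 3 members of each of 42 lists with the lowest p, and every member of the LSD1-CoREST and pluripotency lists. Of the genes so taken, some are not reported here. Predicted genes and pseudogenes were to be counted only; those named, and the levels of other single genes, were chosen after their values were seen. Copies were found from shared words of 31 bases between transcripts and aligned with Biopython. The 9 libraries of 11 months were not used here.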

Additional observations from a re-analysis of the deposited data

Results flagged for a closer look

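In groups of 4 libraries, 21 groups (7 genes in 3 genotypes) were examined for a library whose gap to its neighbour takes more of the group's range than Dixon's 95% critical value, which chance gives in about 1 group in 20. Gm10036 in PS19;Lsd1Δ/+ replicate 3 was 0.518 CPM, far below the 3 others of its group at 7.05 to 8.04 CPM, and Kdm1a in that library was 59.7 CPM, the highest of its group. Gm5855 in PS19 replicate 2 was 10.4 CPM, far above the other PS19 libraries at 0.0617 to 0.963 CPM.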

How the results depend on the processing

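For Lsd1Δ/+ against WT, the 3 calls were 113 (39 higher, 74 lower) without the filter on low counts and 19 by DESeq2, and 0 in the fits of 8 libraries, 14 libraries, 14 libraries with a covariate for the replicate set, and 6 libraries (150, 257, 136 and 156 genes at an unadjusted p under 0.05). With the replicate number as a block there were 0 calls (527 genes at an unadjusted p under 0.05); same-numbered deviations correlated at 0.0917, so the numbers were not taken to pair the libraries. Without genes that share words, an alternative added after the data were seen that leaves out all 3 called genes, there were 0. Leaving out 1 library gave 7 to 18 calls, and all 3 called genes were among them each time; a lone library is then assumed to vary like the others. For Kdm1a, 16 alternatives gave -0.65 to -0.48 (adjusted p 0.0379 to 1.0); the drop of -0.54 passed the threshold without the filter (adjusted p 0.0379), where 4 genes within 10 Mb were called, and leaving out 1 library gave -0.53 to -0.52. With the transgene, the 0 calls became 4 without the filter, 6 by DESeq2 and 0 to 1546 when 1 library was left out; with the block they stayed 0. For the difference between backgrounds these were 2, 4, 0 to 695 and 0. For the mean of both backgrounds, also added later, the 1 call became 3 without the filter, 4 by DESeq2, 0 with the block, 0 with 14 libraries and the set covariate, and 0 to 420 with 1 library left out. With 14 and with 6 libraries, where WT replicates 3 and 4 enter, mt-Nd4l turned to -3.33 and -3.35, Gm28661 to -2.26 and -2.29, Gm10925 to -5.84 and -5.86, Gm28437 to -1.20 and -1.22, and Gm4735 to 0.21 and 0.21; the set covariate gave -0.14 for Gm28661, -2.13 for Gm10925 and -0.37 for Gm28437. The cause was not tested. The fit of 14 libraries with the set covariate was also run without PS19;Lsd1Δ/+ replicate 3, an alternative added later. It gave 1 call for the mean of both backgrounds and 0 for PS19;Lsd1Δ/+ against PS19.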

Other observations

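Mcmdc2, which DESeq2 called as higher (adjusted p = 0.0493) and edgeR did not, had 1 and 4 counts in WT and 32 and 42 counts in Lsd1Δ/+. It had 56 counts in PS19 replicate 2, 29 and 20 counts in PS19;Lsd1Δ/+ replicates 1 and 2, and 1 to 5 counts in each of the 7 other libraries of 9 months, and was singled out after these values were seen. The libraries with 20 counts or more are the same 5 in which Gm5855 exceeded 1 CPM.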
